A study of Rhagoletis pomonella with 50 samples.

Results

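Hawthorn pupae of the fly Rhagoletis pomonella were compared after 6 and after 2 months in the cold. The comparison took every library titled as hawthorn at either month, which gave 10 of the 50 libraries of the series, with 5 pools per month. All 20132 features (gene identifiers) with a count of at least 1 in some of the 10 libraries were considered. Across the whole series 13862 features had enough reads to be tested, and they held 99.9% of the counts of these 10 libraries.

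Both groups were pupae whose larvae had fed on hawthorn fruit gathered at Urbana, Illinois. Larvae were kept for 10 days at 24 °C with 14 h of light and 10 h of dark and formed pupae. These went to 3.5 °C and 95% relative humidity, and only the time there differed by label. Each library was made from the central nervous system (CNS) of 10 pupae, as stranded polyA RNA read from a single end over 100 bp. The other 40 libraries were hawthorn at 3, 4 and 5 months and apple at 2 to 6 months. The labels call each library a pool and do not say whether the pools differ in anything else, so p-values measure the spread between pools. Fewer cells of a type and less RNA per cell cannot be told apart in such pools. The label of 1 of the 6-month libraries has the letter B after its number. It is treated here as replicate 3, since no source says whether it repeats another library.

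Rhagoletis pomonella lays its eggs in ripening fruit, and the pupa spends the winter in the soil in diapause, a hormonally held arrest of development with a lowered metabolism. Long chilling brings the pupa closer to the point at which warmth restarts adult development. The insect brain takes part in this control, since its neurosecretory cells release the hormone that drives the prothoracic gland to make ecdysteroids, the steroids of moulting and metamorphosis. The adult nervous system is built from the larval one when development resumes.

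No identifier could be given a gene name (0 of 29399 matched the reference tables). The CNS label could therefore not be checked against marker genes, and neither pathways nor markers of other tissues such as fat body or muscle could be followed. Features are described by what the files do hold, which is their level, their transcript length, their number of transcripts and their change.

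The smallest of the 10 libraries had a total of 9034291 expected counts and the largest 19103881, around a median of 14338226. They did not differ detectably between months, with 14860901 ± 4180500 (SD, n = 5) at 2 months and 14473004 ± 1569813 at 6 months (adjusted p = 0.960, exact permutation test). The labels give neither lane nor index type, and both were read from the names of the deposited files. The lanes divided the groups unevenly. At 2 months 3 libraries came from lane 1 and 2 from lane 7, while at 6 months 2 came from lane 2 and 3 from lane 7. All 3 of the latter carried a single index, and the other 7 libraries a dual index. Replicate 5 of 6 months stood apart from the other 4 in its content of long transcripts, so results that rest on it are given with and without it.

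The CNS of hawthorn pupae differed between 6 and 2 months in 2890 of the 13862 features tested (20.8%). Of these, 1680 were higher at 6 months (12.1%) and 1210 were lower (8.73%), by edgeR's quasi-likelihood test with a Benjamini-Hochberg adjusted p under 0.05. The features that rose did so by a median of 0.96 on the log2 scale, and those that fell had a median change of -0.74. Over all tested features the median change was -0.02, with an 80% span from -0.71 to 0.89. The set that fell was the more abundant over both months, with a median of 13.3 CPM (counts per 1000000 of the scaled library total) over the 10 libraries, against 7.29 CPM for the set that rose and 5.72 CPM for all tested features.

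Large changes were more often rises. At least 2-fold higher were 800 called features and at least 2-fold lower were 302, while 105 rose and 44 fell at least 4-fold. Under 1.5-fold were 264 of the rises and 345 of the falls. Most changes of at least 2-fold were in scarce features, with 193 rises and 44 falls under 1 CPM and 467 and 178 from 1 to 10 CPM. From 10 to 100 CPM they were 124 and 65, from 100 to 1000 CPM 14 and 9, and at 1000 CPM or more 2 and 6. The excess of large rises was also there with lane as a term in the model (837 against 311), with the length slope described below as a term (604 against 275), in DESeq2 (852 against 334) and without the single-index libraries (536 against 226). Within lane 7 alone, with 2 libraries against 3, the counts were 346 and 292.

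The lists that rose and fell held different parts of the RNA. Those that rose took 6.52 ± 0.443% of the counts at 2 months (SD, n = 5, from 5.84% to 6.99%) and 11.2 ± 0.886% at 6 months (from 9.76% to 11.9%). Those that fell took 17.7 ± 0.644% at 2 months and 10.8 ± 0.903% at 6 months. These shares describe the lists and test nothing, since the lists were chosen on the same values.

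Of the features that rose, 1205 had every 6-month library above every 2-month library, and of those that fell 763 had every one below. Over all tested features, called or not, such separation in the upward direction was found in 1396 (10.1%) and in the downward direction in 991 (7.15%).

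The number of calls depended on which libraries were used. Without the single-index libraries, which left 2 at 6 months, 1324 features were called (870 higher and 454 lower), and within lane 7 the count was 758. In all 10 fits that left out 1 library in turn, 1776 of the 2890 stayed called in the same direction. A set of 1048 (721 higher and 327 lower, 36.3% of the calls) was called in the same direction with all libraries, with the lane term, without the single-index libraries, in DESeq2, with the length slope as a term and in every fit with 1 library left out.

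**Figure D1:**
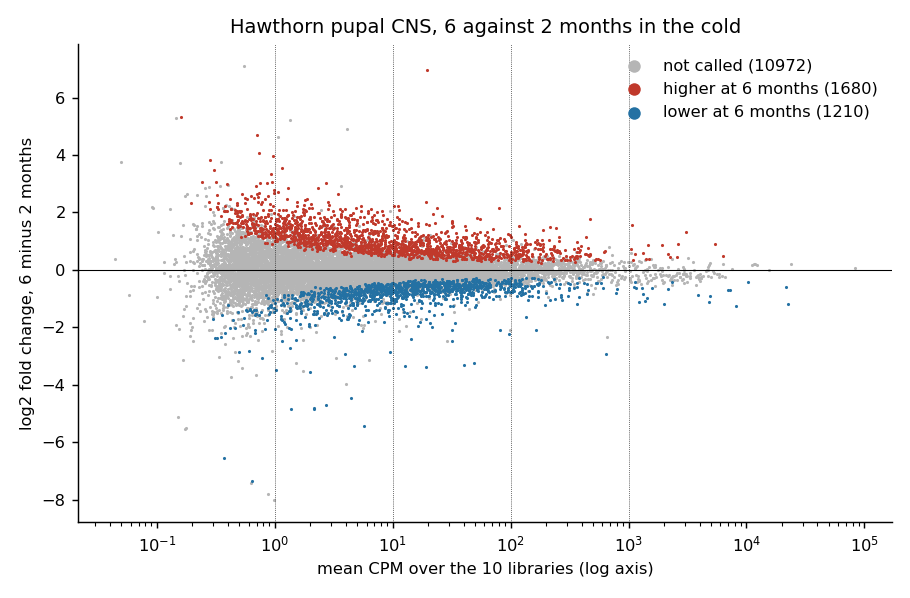
Change of every tested feature between 6 and 2 months in hawthorn (log2 fold change, y axis) against its mean level over the 10 libraries (CPM, log axis), with 1680 called higher in red, 1210 called lower in blue and 10972 not called in grey. Dotted lines divide the abundance classes. Up to 1000 CPM, smaller changes are called at higher levels.

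The features with the clearest rise were gene8738 and gene14416. By the naming rule these have the smallest p among called features of at least 10 CPM whose libraries do not overlap. No function can be given for them. The feature gene8738 has 4 transcripts, and its deposited mean transcript length averaged 12495 bp over the 50 libraries. Its level was 9.16, 10.8, 6.05, 6.25 and 10.8 CPM in the 5 libraries of 2 months. At 6 months it was 39.95, 38.9, 43.7, 43.0 and 29.5 CPM. The lowest 6-month library, replicate 5, was still above every 2-month library. The mean went from 8.61 ± 2.35 to 39.0 ± 5.68 CPM (SD, n = 5), which in edgeR was a log2 fold change of 2.17 with an SE of 0.198 (adjusted p = 1.76e-10). Between these months it passed through 13.9 ± 2.60 CPM at 3 months, 17.4 ± 2.98 at 4 months and 28.0 ± 4.04 at 5 months.

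The single-transcript feature gene14416, 3453 bp long, was at 14.3, 11.3, 9.97, 9.25 and 10.1 CPM at 2 months. Its 6-month libraries held 27.6, 39.6, 35.4, 35.2 and 34.4 CPM, all above the highest 2-month value. The mean went from 10.98 ± 1.99 to 34.4 ± 4.35 CPM, and the edgeR log2 fold change was 1.64 (SE 0.169; adjusted p = 1.71e-09). Its 3-month mean of 18.3 ± 0.858 CPM and its 5-month mean of 25.3 ± 2.92 CPM lay between. Per length it was the more abundant of the pair, with a mean deposited TPM of 3.00 at 2 months and 10.9 at 6 months, against 0.650 and 3.37 for gene8738.

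The clearest falls were those of gene231 and gene11361, by the same rule. The feature gene231 has 19 transcripts, and its deposited mean transcript length averaged 17792 bp over the 50 libraries. Its level was 361, 368, 364, 349.6 and 402 CPM in the libraries of 2 months. At 6 months it was 172, 204, 183, 180.1 and 159 CPM, so that the groups were far apart. The means were 369 ± 19.96 and 179 ± 16.4 CPM, and edgeR gave a log2 fold change of -1.04 with an SE of 0.103 (adjusted p = 1.12e-09). At 3 months it was still at 327 ± 16.0 CPM, and at 4 and 5 months at 179 ± 36.7 and 220.4 ± 10.7 CPM. The lowest of its 4-month libraries held 121 CPM, below the lowest at 6 months, and was replicate 4, which lies apart in the series.

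The shorter gene11361, with 2859 bp and 2 transcripts, was at 23.5, 20.3, 20.4, 19.2 and 20.8 CPM at 2 months. It was at 6.98, 6.59, 7.19, 6.50 and 7.38 CPM at 6 months, with little spread in either group. It fell from 20.8 ± 1.58 to 6.93 ± 0.378 CPM, which in edgeR was a log2 fold change of -1.59 with an SE of 0.160 (adjusted p = 1.33e-09). Its means at 3, 4 and 5 months were 17.9 ± 1.31, 10.4 ± 3.99 and 9.09 ± 1.05 CPM. The length slope term gave log2 fold changes of 1.90 for gene8738, 1.59 for gene14416, -1.16 for gene231 and -1.59 for gene11361. Within lane 7 alone the adjusted p by edgeR was 0.0101 for gene8738, 0.00470 for gene14416, 0.0115 for gene231 and 0.0103 for gene11361. The lane 7 libraries are among the 10 that chose these features, so these values are no separate support. Index type and month cannot be told apart in that lane.

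**Figure D2:**
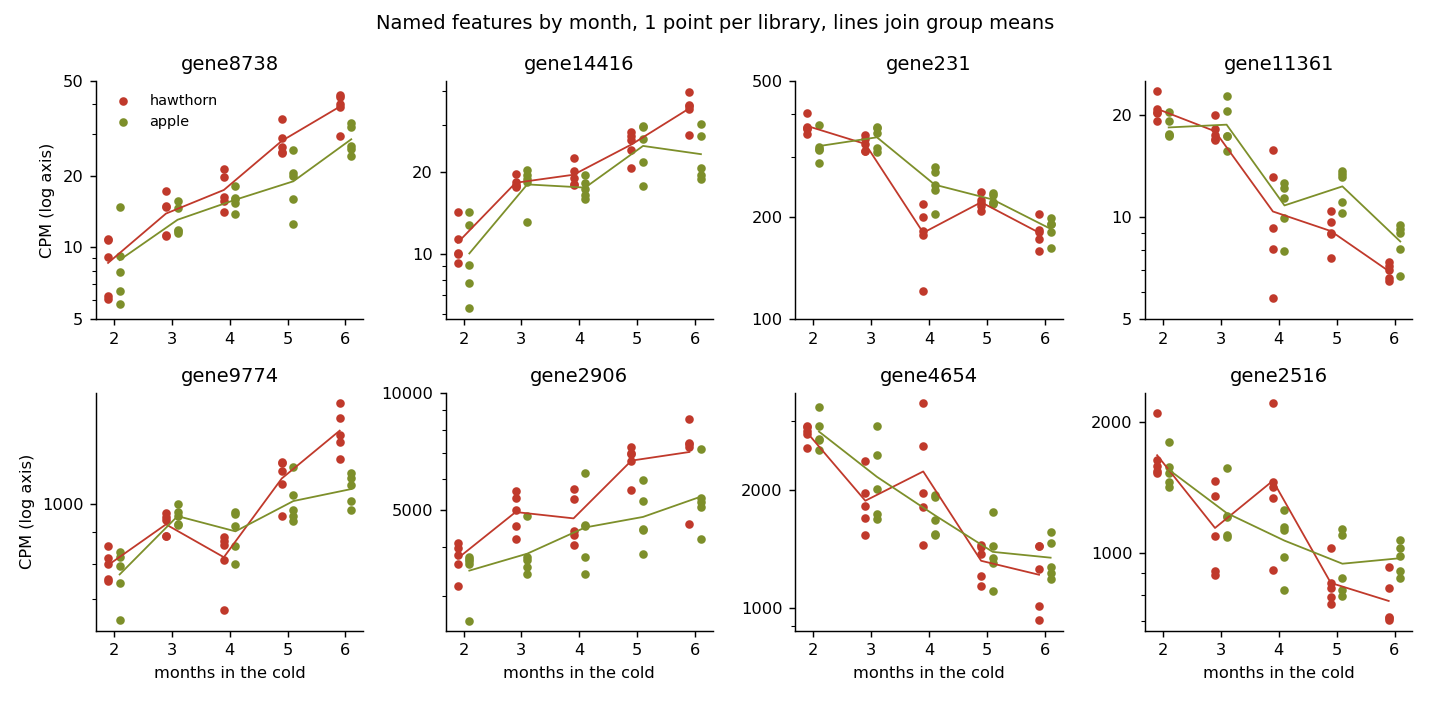
Level of the 8 named features (CPM, log axes that differ between panels) by months in the cold, with 1 point per library and lines through the means of 5 libraries, hawthorn in red and apple in green. In hawthorn the 2-month and 6-month points do not overlap in any panel, and the apple means change in the same direction.

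By abundance, the scarce features were called mostly as rises. Among 2614 tested features with a mean under 1 CPM, 196 rose and 46 fell, and the median change was 0.12. The same class gave 152 and 38 calls with the lane term, 134 and 34 with the length slope term and 87 and 10 without the single-index libraries. Such features entered the test through any of the 10 groups of the series in which they had enough reads, and these can be the groups compared. With no filter the median change of the class was 0.017. The median level of this class (log2, relative to the mean of the 10 libraries) was -0.05 ± 0.07 at 2 months and 0.12 ± 0.06 at 6 months (SD, n = 5).

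In the middle classes the balance of rises and falls depended on the level and on the model. Between 1 and 10 CPM, 743 of 5731 rose (13.0%) and 455 fell. Between 10 and 100 CPM, 571 of 4415 rose and 595 fell, and between 100 and 1000 CPM, 154 of 931 rose (16.5%) and 93 fell. Without replicate 5 of 6 months these became 559 rises and 690 falls between 10 and 100 CPM, and 144 and 105 between 100 and 1000 CPM. With the length slope term they were 555 and 680, and 171 and 137. With the lane term they were 513 and 456, and 136 and 74. No test compares these classes, and the power to call a change of a given size differs between them. The median SE was 0.54 under 1 CPM, 0.30 from 1 to 10 CPM and 0.18 from 10 to 100 CPM. It was 0.15 from 100 to 1000 CPM and 0.19 at 1000 CPM or more.

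At 1000 CPM or more, 16 of 171 features rose and 21 fell, with a median change of -0.17. Here the direction turned with the model. With the length slope as a term, 24 rose and 15 fell and the median was 0.15, and with the lane term 16 rose and 13 fell. Within lane 7 the median was 0.01. Classes formed on deposited TPM in place of CPM gave 6 rises and 20 falls at 1000 TPM or more, and 20 and 11 with the length slope term.

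Among these abundant features, gene4654 and gene2516 had the clearest falls. Both have a single short transcript, of 934 and 771 bp. The level of gene4654 was 2781, 2892, 2833, 2561 and 2904 CPM at 2 months, and 929.9, 1254, 1435, 1009.5 and 1438 CPM at 6 months. The groups were more than 1000 CPM apart. The means were 2794 ± 139 and 1213 ± 236 CPM, with a log2 fold change in edgeR of -1.20 (SE 0.163; adjusted p = 3.81e-07). The feature gene2516 was at 1542, 1581, 1634, 2097 and 1523 CPM at 2 months, with replicate 4 the highest. At 6 months it was at 702, 831, 713, 709 and 928 CPM. Its mean fell from 1676 ± 239 to 776.5 ± 99.9 CPM, by edgeR a log2 fold change of -1.11 with an SE of 0.158 (adjusted p = 9.62e-07). The length slope term gave log2 fold changes of -1.01 for gene4654 and -0.83 for gene2516.

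The clearest rises of the abundant class were those of gene9774 and gene2906, of 2197 and 3559 bp. The level of gene9774 was 854, 800.5, 756, 749.9 and 818 CPM at 2 months, and 1382, 1295, 1186, 1457 and 1261 CPM at 6 months. The means were 796 ± 43.7 and 1316 ± 106 CPM, and by edgeR the log2 fold change was 0.73 with an SE of 0.0902 (adjusted p = 7.35e-08). In the 2-month libraries gene2906 held 4111, 3618, 3825, 3187 and 3984 CPM. At 6 months it held 8551, 7367, 7427, 7235 and 4594 CPM, and replicate 5 was the library nearest to the 2-month values. The mean rose from 3745 ± 362 to 7035 ± 1463 CPM, in edgeR by 0.91 on the log2 scale with an SE of 0.154 (adjusted p = 1.93e-05). It did not pass the threshold within lane 7 (0.74, adjusted p = 0.106, edgeR). The length slope term gave log2 fold changes of 0.64 for gene9774 and 0.70 for gene2906.

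By transcript length, long features were called mostly as rises and short ones mostly as falls. Of 1476 features of 4000 bp or more, 410 rose (27.8%) and 91 fell (6.17%), with a median change of 0.20. Of 3943 features of 2000 to 4000 bp, 627 rose and 304 fell. Between 1000 and 2000 bp, 451 of 5131 rose and 471 fell. From 500 to 1000 bp, 165 of 2698 rose (6.12%) and 290 fell (10.7%), with a median of -0.20, and under 500 bp 27 of 614 rose and 54 fell. The features that rose had a median length of 2472 bp and those that fell 1490 bp, against 1649 bp for all tested features.

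The order by length was also described per library, from the same levels as the changes. The length slope of a library is the slope of its levels (log2 CPM, relative to the mean of the 50 libraries) on the log2 length of the features. A positive slope means that long transcripts are over-represented. At 2 months the slopes were -0.0712, 0.00346, -0.0717, -0.117 and -0.0238 per doubling of length. At 6 months they were 0.104, 0.0999, 0.102, 0.110 and -0.0770. Replicates 1 to 4 of 6 months lay above all 2-month libraries, and replicate 5 lay among them. The means were -0.0560 ± 0.0467 and 0.0678 ± 0.0810 (n = 5), and the difference did not pass after adjustment over 6 library measures (exact permutation p = 0.0397, adjusted p = 0.0794). Without replicate 5 of 6 months the difference was 0.160, given with no test because that library was singled out by its slope. In the other hawthorn groups the mean slope was 0.0257 at 3 months, -0.121 at 4 months and 0.0921 at 5 months. The 4-month slopes ran from -0.272 to 0.0996 (SD 0.156), and replicates 2 and 4 of that month lie apart in the series. The group means, over all 5 libraries of each, did not move in 1 direction with time. How far a slope comes from RNA quality or library making was not tested.

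A model with the length slope of each library as a term takes out a linear order by length by construction, since the slopes come from the same levels. At 4000 bp or more 285 features (19.3%) rose and 226 (15.3%) fell (median -0.03), from 2000 to 4000 bp 426 rose and 506 fell, and from 500 to 1000 bp 230 (8.52%) rose and 153 (5.67%) fell (median 0.03). Both rises and falls thus made up a larger share of the long features than of those from 500 to 1000 bp. In the model without the slope term the median SE was 0.41 under 500 bp, 0.33 from 500 to 1000 bp and 0.20 at 4000 bp or more. A change of a given size is therefore called more easily in long features. The total was 2797 calls, of which 1884 were among the 2890 and in the same direction, and 913 were others. Without replicate 5 of 6 months and with no slope term, the order by length was steeper, with 428 rises and 82 falls at 4000 bp or more and 144 rises and 401 falls from 500 to 1000 bp. With the lane term 401 long features rose and 70 fell.

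Length classes were also divided by level, with no test between levels. Long features under 10 CPM rose more often than they fell in both models, with 152 rises and 15 falls among 570, and 112 and 31 with the slope term. From 10 to 100 CPM long features went from 210 rises and 57 falls among 733 to 145 and 153. Long features of 100 CPM or more went from 48 rises and 19 falls among 173 to 28 and 42 with the slope term. Short features (under 1000 bp) of 100 CPM or more went from 9 rises and 30 falls among 225 to 45 and 15. The set of 1048 called under all models named above held 52.7% of the calls at 4000 bp or more, 39.2% of those from 2000 to 4000 bp and 19.8% of those under 500 bp. The SE is smaller for long features, so the classes compared by these shares also differ in power.

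**Figure D3:**
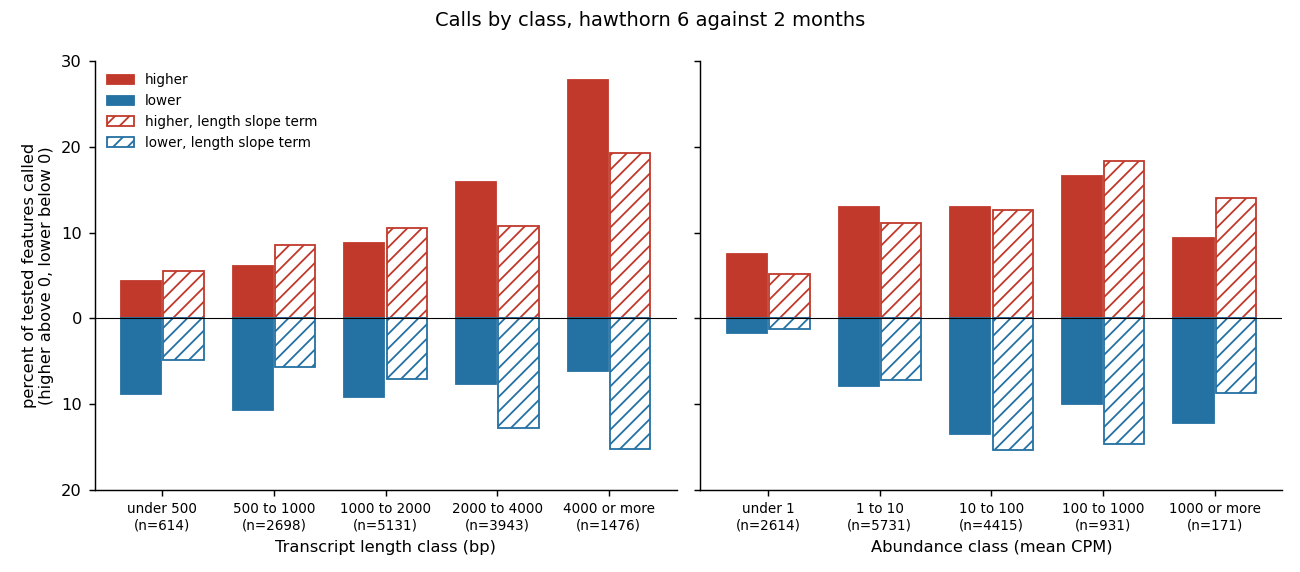
Percent of tested features called higher (above 0) and lower (below 0) at 6 months in each transcript length class (left) and abundance class (right), with solid bars for the model without and hatched bars for the model with the length slope of a library. Of the solid bars for rises, the tallest is 27.8% at 4000 bp or more, and the excess of rises at 4000 bp or more shrinks in the hatched bars.

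**Figure D4:**
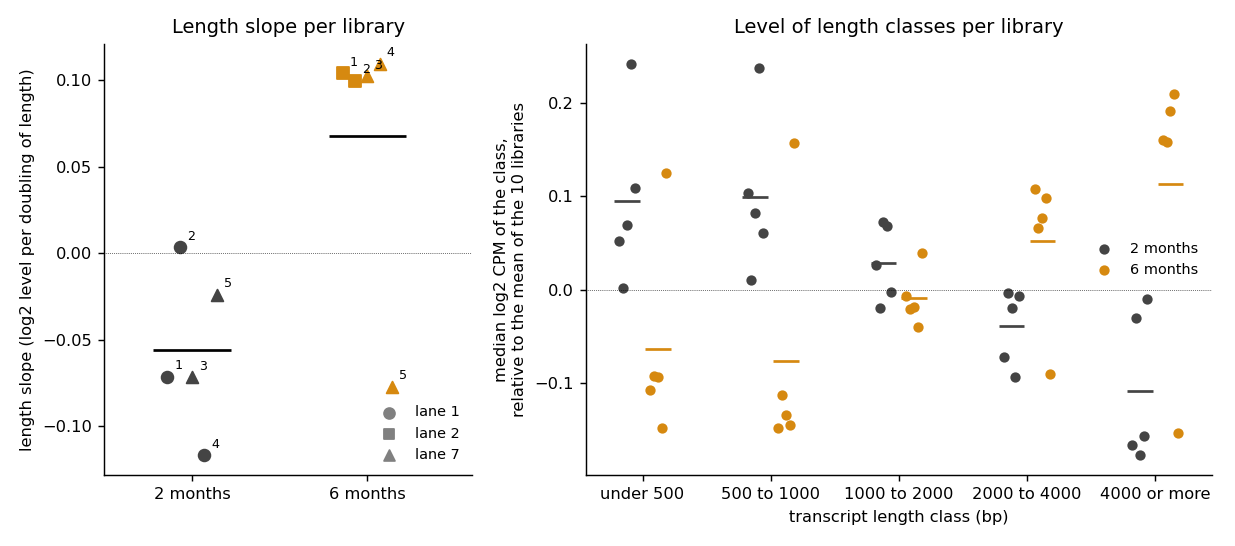
Length slope of each of the 10 libraries (left, numbers are replicates and symbols lanes) and median level of each length class in each library (right, log2 CPM relative to the mean of the 10 libraries), with bars at the means of 5 libraries. Replicate 5 of 6 months, with a slope of -0.0770, lies with the 2-month libraries in both panels.

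Features with 6 or more transcripts had the largest share of calls among the transcript number classes. Of 10033 features with 1 transcript, 1174 rose and 795 fell (19.6% called). Of 1963 with 2 transcripts, 244 rose and 200 fell, of 1381 with 3 to 5 transcripts 170 rose and 156 fell, and of 485 with 6 or more 92 rose and 59 fell (31.1% called). With the length slope term the direction turned in the last 2 classes, to 129 rises and 201 falls and to 64 rises and 89 falls. In the model without that term the median SE was 0.29 for 1 transcript and 0.19 for 6 or more. Power thus differs between these classes too. The mean length that RSEM gives a feature in each library follows which of its transcripts are used, and 3829 tested features had more than 1. In 85 of them (2.22%) every 6-month library had a longer mean than every 2-month library, and in 17 (0.444%) a shorter one. Of these, 26 and 6 were also called in level. Over all tested features, 22.6% of those with 2 transcripts, 23.6% with 3 to 5 and 31.1% with 6 or more were called. The median gain among the 85 was 2.93%.

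Measures of how the reads were spread over features were also taken per library. The 100 most abundant features took 53.7 ± 1.12% of the counts at 2 months and 51.4 ± 1.92% at 6 months (n = 5, exact permutation p = 0.0556, adjusted p = 0.0833). At a common depth of 9034277 reads, 16109 ± 255 features were expected to be seen at 2 months and 16578 ± 156 at 6 months (n = 5, exact permutation p = 0.0159, adjusted p = 0.0794). The mean length weighted by counts was 1855 ± 80.6 bp and 2026 ± 123 bp (n = 5, exact permutation p = 0.0397, adjusted p = 0.0794). None of the 6 measures passed the threshold with all libraries, and the smallest p the design allows is 0.00794. Without replicate 5 of 6 months the differences were -3.01 percentage points, 532 features and 223.6 bp, also given with no test, since the library was singled out by its content of long transcripts.

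Few features went on or off. Of all 29399 features, 13612 had a count of at least 1 in each of the 10 libraries and 9187 had 0 in all 10. Only 14 had 0 in all libraries of 2 months and at least 1 read in all of 6 months, and 3 were the other way round. Of these 17, 2 passed the count filter, gene9688 and gene12846, which are named here after their values were seen. The first, gene9688, had 0 in every library of 2 months and 9.99, 19.2, 10.0, 10.0 and 25.1 expected counts at 6 months. With a floor of 3 counts over the 2-month group its level was at least 25.4-fold higher at 6 months, but edgeR did not call it (adjusted p = 0.0691). The other, gene12846, was called. It had 10.8, 8.64, 3.80, 17.8 and 7.98 expected counts at 2 months and 0 in every library of 6 months. With a floor of 3 counts over the 6-month group, its level was at least 15.9-fold lower at 6 months.

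The same direction was found in hawthorn libraries that were not among the 10 compared, though they shared the filter and the fit. From 3 to 5 months, 345 features were called (2.49%), 222 of them higher (1.6%) and 123 lower (0.887%). Of the 2890 features, 2637 (91.2%) changed in the same direction, against 71.5% of all tested features. The features that rose from 2 to 6 months had a median change of 0.41 from 3 to 5 months, and those that fell had -0.32. Both lists called 284 features in the same direction and 0 in opposite ones, which is 9.83% of the 2890 and 82.3% of the 345. With the lane term 2591 of the 2890 had the same sign, but only 16 features were called from 3 to 5 months. The length slope was also higher at 5 months (0.0921 ± 0.0473, n = 5) than at 3 months (0.0257 ± 0.0560), and with it as a term the number with the same sign was 2496.

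Over the 5 months the list that rose had its median level (log2, relative to the 10 libraries of 2 and 6 months) at -0.47, -0.10, -0.14, 0.30 and 0.47 in hawthorn. The list that fell was at 0.36, 0.09, -0.01, -0.25 and -0.36. The values at 2 and 6 months were fixed by the choice of the lists. At 4 months the libraries of replicates 2 and 4 lie apart in the series, and without them the medians there were -0.04 and -0.07. The medians of single libraries at 3 and 4 months overlapped in both lists. For the list that rose, every 5-month library was above every 4-month library, while for the list that fell these months overlapped.

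**Figure D5:**
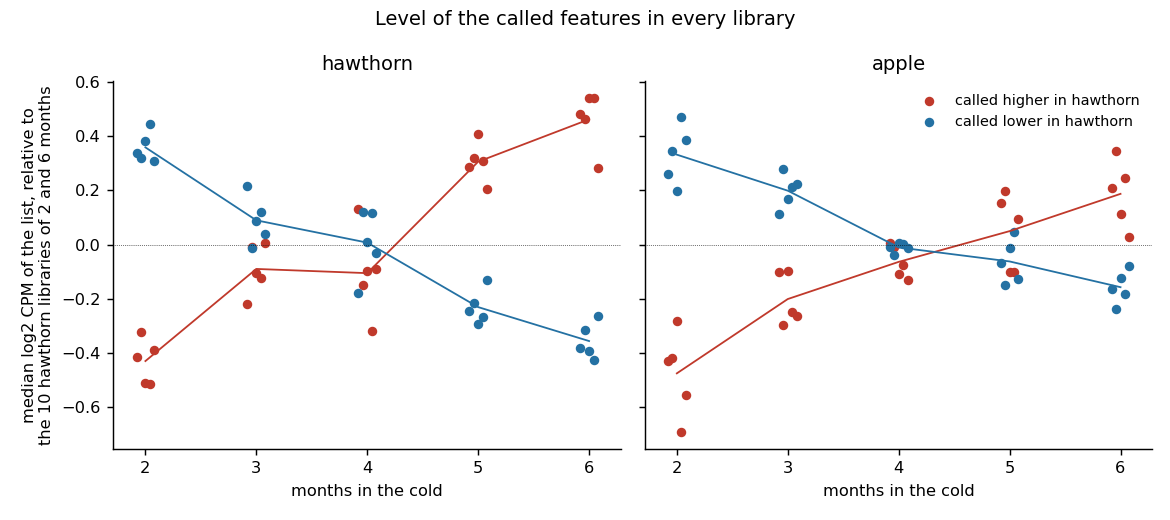
Median level of the 1680 features called higher (red) and the 1210 called lower (blue) in each library (log2 CPM relative to the 10 hawthorn libraries of 2 and 6 months) by months in the cold, with lines through the means of 5 libraries. In apple the mean of the red points goes from -0.48 to 0.19 and that of the blue points from 0.33 to -0.16. Apple libraries are not among the 10 compared but shared the filter and the fit, while the hawthorn ends were fixed by the choice of the lists.

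Apple pupae showed the same direction over the same months. From 2 to 6 months 2164 features were called in apple (15.6%), with 1299 higher (9.37%) and 865 lower (6.24%), and 2810 of the 2890 (97.2%) changed in the direction seen in hawthorn, against 77.1% of all tested features. Both hosts called 1448 in the same direction and 1 in opposite ones, which is 50.1% of the hawthorn calls and 66.9% of the apple calls. With the lane term apple had 354 calls, of which 328 were among the 2890 and in the same direction. Without the single-index libraries it had 1105 calls, of which 874 were among the 2890 and in the same direction. No lane held both months in apple, with lanes 2 and 3 at 2 months and lanes 6 and 7 at 6 months. All 6 single-index libraries of the series were of 6 months, so both hosts share this overlap of index type with month. In apple the list that rose went from -0.49 at 2 months to 0.18 at 6 months and the list that fell from 0.35 to -0.17. The mean length slope in apple was -0.0277 ± 0.0631 at 2 and 0.0324 ± 0.0432 at 6 months (SD, n = 5). The slopes of single libraries overlapped, with a highest of 0.0273 at 2 months and a lowest of -0.00637 at 6 months. In apple 305 features of 4000 bp or more rose and 120 fell. Short features were not called mostly as falls there. From 500 to 1000 bp 138 rose and 111 fell (median change -0.07). Under 500 bp 25 rose and 24 fell (median -0.10).

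Whether the change differed between the hosts was tested as the difference of both changes. No feature was called by edgeR (0 of 13862, 0%; smallest adjusted p = 0.0558), DESeq2 called 2, and an unadjusted p under 0.05 was reached by 632. The median size of the estimated difference was 0.24 (log2), below its median SE of 0.364. The 8 named features changed in the same direction in apple. They were chosen by their p in hawthorn, so a larger change in hawthorn than in apple is favoured by the choice, and the differences below are a description. For gene8738 the apple mean went from 8.85 ± 3.55 to 28.5 ± 3.98 CPM, and the hosts differed in the change by 0.49 (SE 0.269). For gene11361 it went from 18.4 ± 1.34 to 8.47 ± 1.13 CPM, a difference in the change of -0.47 (SE 0.221).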

How the data were processed

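The authors used STAR to map reads to an R. zephyria genome, a related species, and RSEM to count them, per the submitters' processing notes. Not given in the sources used here are tool versions, genome build, annotation and the strand setting of the counting, so overlapping and antisense genes and near-identical copies are uncertain. The authors deposited, per the file headers, expected counts, TPM and the mean transcript length of each of 29399 features. In the 10 libraries compared, between 15.4% and 18.4% of a library's features were not whole (tolerance 1e-06). Expected counts were rounded, which moved no total of these 10 by more than 0.000254%. Over all 50 libraries the largest move was 0.000438%. TPM served for classes and levels per length.

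Features were filtered with edgeR's filterByExpr (minimum count 10, minimum total 15) on the 10 groups, scaled by TMM and fitted with 1 mean per group over all 50 libraries (R 4.3.3, edgeR 4.0.16 quasi-likelihood, limma 3.58.1, Benjamini-Hochberg over 13862 features, threshold 0.05). SE was derived from the fold change and F. DESeq2 1.42.0 was an alternative. The scripts were tested on simulated counts. Figures used matplotlib 3.10.9 in Python 3.11.15. Abundance classes are bounded at 1, 10, 100 and 1000 CPM and length classes at 500, 1000, 2000 and 4000 bp. Library measures were compared by 2-sided exact permutation over 252 splits. Lane and index type were read from the names of the deposited files.

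Named features are the 2 higher and 2 lower with the smallest p, of at least 10 CPM and without overlap between groups, and the same by smallest p at 1000 CPM or more. The comparison, classes and rules were chosen with earlier results of these data known.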

Additional observations from a re-analysis of the deposited data

Results flagged for a closer look

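Groups of 5 libraries were searched for a highest or lowest library far from the others, in 68 groups of values, and 4 were found. Chance alone gives about 1 in 20 groups. In the length slope, replicate 5 of hawthorn at 6 months lay at -0.0770, while the other 4 libraries lay between 0.0999 and 0.110. The same library was the farthest from its group in level, with a spread of 0.354 against 0.224 to 0.242 in the other 4. Without it 2978 features were called, against 2890 with it.

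For gene2906, replicate 4 of apple at 2 months held 2587 CPM, below a group mean of 3482 CPM. For gene2516, replicate 4 of hawthorn at 2 months held 2097 CPM, above a group mean of 1676 CPM. That library also had the lowest length slope of its group, -0.117, and gene2516 is 771 bp long. The part of either library's length slope in its level was not tested.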

How the results depend on the processing

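The number of calls stayed within 1.5 times of 2890 under relative log expression size factors (2877), no filter, a mean CPM of at least 1, DESeq2 (3190), only the 2 groups, the lane term (2423), the slope term (2797) and without the outlying 4-month libraries (3737). It was 1324 (870 higher, 454 lower) without single-index libraries and 758 (415 and 343) within lane 7. Leaving out 1 library gave 2293 to 2978 calls, 1423 to 1639 higher and 870 to 1339 lower. The pairing correlations of same-numbered libraries were -0.18, 0.11, -0.07, -0.07 and -0.09. Of the 5 numbers, 1 correlated best with its own number, so the numbers were not taken as pairs. These are not correlations of whole levels, which for log counts reached 0.98 among the 10 libraries. With a replicate block 2875 features were called, and 2516 with the block in a fit of only these groups (3338 without). Under the block as sign flips, the adjusted exact p of the slope difference was 0.281 (smallest possible p 0.0625).

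The host difference gave 1 call with the CPM filter, 1 with only the groups compared, 1 with those groups and the replicate block, and 2 in DESeq2. Leaving out 1 library gave 0 to 1.

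The median change of transcripts under 1000 bp was 0 without a filter and 0.026 with the slope term (leaving out 1 library, -0.30 to -0.15). At 4000 bp or more it was -0.027 with the slope term (0.18 to 0.24). At 1000 CPM or more it was 0.15 with the slope term and 0.011 within lane 7 (-0.26 to -0.11). Under 1 CPM it was 0.017 without a filter and 0.20 within lane 7 (0.09 to 0.17), and the CPM filter leaves no such feature. Within lane 7 the differences in spread (0.0191) and total count (847482) turned sign, as they did when single libraries were left out (-0.0266 to 0.00579 and -1844549 to 672848). Leaving out 1 library gave slope differences of 0.109 to 0.160, length differences of 142.7 to 223.6 bp, shares of the top 100 of -3.01 to -1.83 percentage points and 397 to 543 more features detected. The high end of the first 2, the low end of the third and 532 features came without replicate 5 of 6 months, where the adjusted p fell under 0.05, but that library was singled out by its slope. The causes were not tested.

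The lanes of the groups overlap only in lane 7, where index type and month cannot be told apart. With 5 pools per month, the median SE was 0.26 over all features and 0.54 under 1 CPM, which limits which small changes can be seen.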

Other observations

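Features with neighbouring identifier numbers changed slightly alike. Across 8904 pairs of tested features whose numbers differ by 1, the log2 changes from 2 to 6 months had a Pearson r of 0.10, and 54.2% of the pairs had the same sign. For numbers that differ by 2, r was 0.04 over 8249 pairs, and for numbers that differ by 5 it was -0.0032 over 7649 pairs. Features are not independent replicates, all pairs come from the same 10 libraries, and whether the numbers follow genome order is not given in the sources used here.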
